A study of Homo sapiens with 6 samples.

Results

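The genes described here are 9 genes of lysosomal glycosphingolipid and cholesterol handling, GM2A, PSAP, NPC2, NPC1, HEXA, GLB1, GLA, ASAH1 and SMPD1, in the cell line DEV. They are 9 of the 18404 genes that had a probe set with a single gene symbol on the array, and each of the 9 was read by 1 probe set. They were selected on measured values, since the differences between cocultured cells and cells grown alone were known from earlier results of these arrays. Those differences are therefore given as a description with their standard errors and without p-values. Counts of members past the threshold in those comparisons are printed beside the share of all probe sets and support nothing. The one comparison read as a test of the members is that between the 2 kinds of coculture. Its differences do not use the cells grown alone, but its p-values and intervals take their spread from all arrays, monoculture included.

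DEV is the only available line of NLPHL (nodular lymphocyte predominant Hodgkin lymphoma), a lymphoma of B cell origin whose tumour cells lie among many T cells and macrophages. The study asked how the lymphoma cells change beside such bystander cells. DEV cells were kept in monoculture (2 arrays), or in coculture with CD3-positive T cells (2 arrays) or with CD14-positive monocytes (2 arrays), both taken from the blood of healthy donors and given in excess. At day 5 the DEV cells of the cocultures were purified with magnetic beads against CD4, CD8 and CD14, a step described for cocultures only, so that bystander cells and bead handling cannot be told apart. All groups are the same line, without any added gene or drug. The arrays are described as representative replicates of several experiments, and the p-values measure only the spread between these arrays.

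Glycosphingolipids are membrane lipids that carry sugars on ceramide, and they are taken apart in the lysosome one sugar at a time. Several of the enzymes can reach their lipid only with the help of small activator proteins that lift it out of the membrane. Cholesterol that enters the cell in lipoproteins is freed in the same compartment and handed from NPC2 to NPC1, which exports it. Loss of single members of the set causes lysosomal storage diseases, among them Tay-Sachs disease (HEXA), Fabry disease (GLA) and Niemann-Pick disease (SMPD1, NPC1 and NPC2).

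Promoter sequence is shown for the members with the largest differences, with the bases before the transcription start given 5′ to 3′ in the direction of the gene, from RefSeq on GRCh38.p14. Promoter windows were at hand for 6 of the 9 members (7 windows, 2 of them of NPC2), and PSAP, HEXA and ASAH1 are named only. Capitals mark CCAAT or its reverse complement ATTGG, a promoter element known as the CCAAT box. The first sequence is chr5:151252935-151253184 on the plus strand, and the second is chr14:74493513-74493762 on the minus strand, for 1 of the 2 windows of NPC2.
GM2A: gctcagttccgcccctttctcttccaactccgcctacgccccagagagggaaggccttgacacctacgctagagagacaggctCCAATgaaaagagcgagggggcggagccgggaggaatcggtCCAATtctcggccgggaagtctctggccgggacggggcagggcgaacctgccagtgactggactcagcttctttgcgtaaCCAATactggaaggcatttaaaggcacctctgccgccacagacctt
NPC2: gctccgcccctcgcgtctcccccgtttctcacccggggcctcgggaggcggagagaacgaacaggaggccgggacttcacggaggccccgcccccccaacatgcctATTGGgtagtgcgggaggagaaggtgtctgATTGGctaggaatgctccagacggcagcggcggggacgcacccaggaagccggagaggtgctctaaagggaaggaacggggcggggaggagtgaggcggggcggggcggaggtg

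The GM2A window held 3 CCAAT elements. Of the 2 NPC2 windows, the one shown was picked for holding more of these elements. It held 2, and the other window held none. Windows of 300 bases, from 250 before to 50 after a start, held CCAAT on either strand in 3 of the 7 member windows (GM2A, NPC2 and GLA), against 34.6% of 35116 windows in the RefSeq table. The letters CACGTG, which read the same on both strands and form the core of the element bound by the lysosomal regulators TFEB and TFE3, were in 0 of the 7 member windows. They were in 7.26% of all windows, and in 19 of the 67 windows (28.4%) of the other lysosomal genes listed further on. The examples below show them in capitals for the sialidase gene NEU1 (chr6:31862912-31862977, minus strand) and for FNIP1, a partner of folliculin (chr5:131797076-131797222, minus strand). These are matches of letters, and binding was not measured.
NEU1: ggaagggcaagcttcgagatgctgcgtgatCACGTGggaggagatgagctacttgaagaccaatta
FNIP1: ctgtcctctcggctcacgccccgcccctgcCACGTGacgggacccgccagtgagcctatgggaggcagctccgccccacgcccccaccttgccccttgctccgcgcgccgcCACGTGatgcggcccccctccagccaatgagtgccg

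Values throughout are log2 expression values as deposited, 1 per probe set and array, and a difference of 1 between groups means a 2-fold difference. Array medians lay between 5.64 and 5.73. Among the coculture arrays, T cell coculture replicate 1 departed least from monoculture. In it 79 probe sets read more than 1 above the monoculture mean and 75 more than 1 below, against 130 to 358 above and 219 to 584 below in the other coculture arrays. An array reads the RNA of a whole cell pool, in which fewer cells of a type and less RNA per cell cannot be told apart. Of the B cell markers, 9 to 11 of the 11 measured stood more than 1 above the array median in every array. Between cocultured and monocultured cells 5 of the 11 were higher and 6 lower (median difference -0.19), and 0 passed by limma (5 at an unadjusted p under 0.05). CD22 and MS4A1 (CD20) differed by 0.70 ± 0.13 (limma adjusted p = 0.0664) and 0.57 ± 0.091 (limma adjusted p = 0.0545). PAX5, the B cell identity factor, read 10.23 and 10.00 in monoculture, 9.57 and 7.77 with T cells, and 8.26 and 7.43 with monocytes, a difference of -1.86 ± 0.50 (limma adjusted p = 0.122). BCL6, a factor of germinal centre B cells, differed by -0.61 ± 0.15 (limma adjusted p = 0.103).

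All 9 genes had a higher mean in cocultured than in monocultured cells, although with every array centred on its own median GLA turned to a difference of -0.013 and 8 of 9 were higher. The median difference of the 9 genes was 0.56, beside a median of 0.028 over all 32321 probe sets. NPC2, GM2A, ASAH1 and PSAP differed by more than 2-fold, and ranked 4, 14, 32 and 53 of the 18404 genes by the size of the difference. HEXA and SMPD1 followed at about 0.5, and GLB1, NPC1 and GLA differed by 0.23 or less. In 7 of the 9 genes all 4 coculture arrays lay above both monoculture arrays, as they did in 15.2% of all probe sets, and in 0 of 9 all 4 lay below, against 13.8%. GM2A alone passed an adjusted p of 0.05 in limma for both cocultures against monoculture (1 of 9 higher). Of all probe sets 0.718% passed, 0.248% higher and 0.47% lower, while 18.8% (6085 of 32321) had an unadjusted p under 0.05 and 57.5% a higher mean in coculture. Since the 9 genes were chosen from this contrast, nothing is read from these counts. The split of all calls, 80 higher and 152 lower, became 90 and 112 after quantile normalization and 120 and 444 after centring on array medians.

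**Figure D1:**
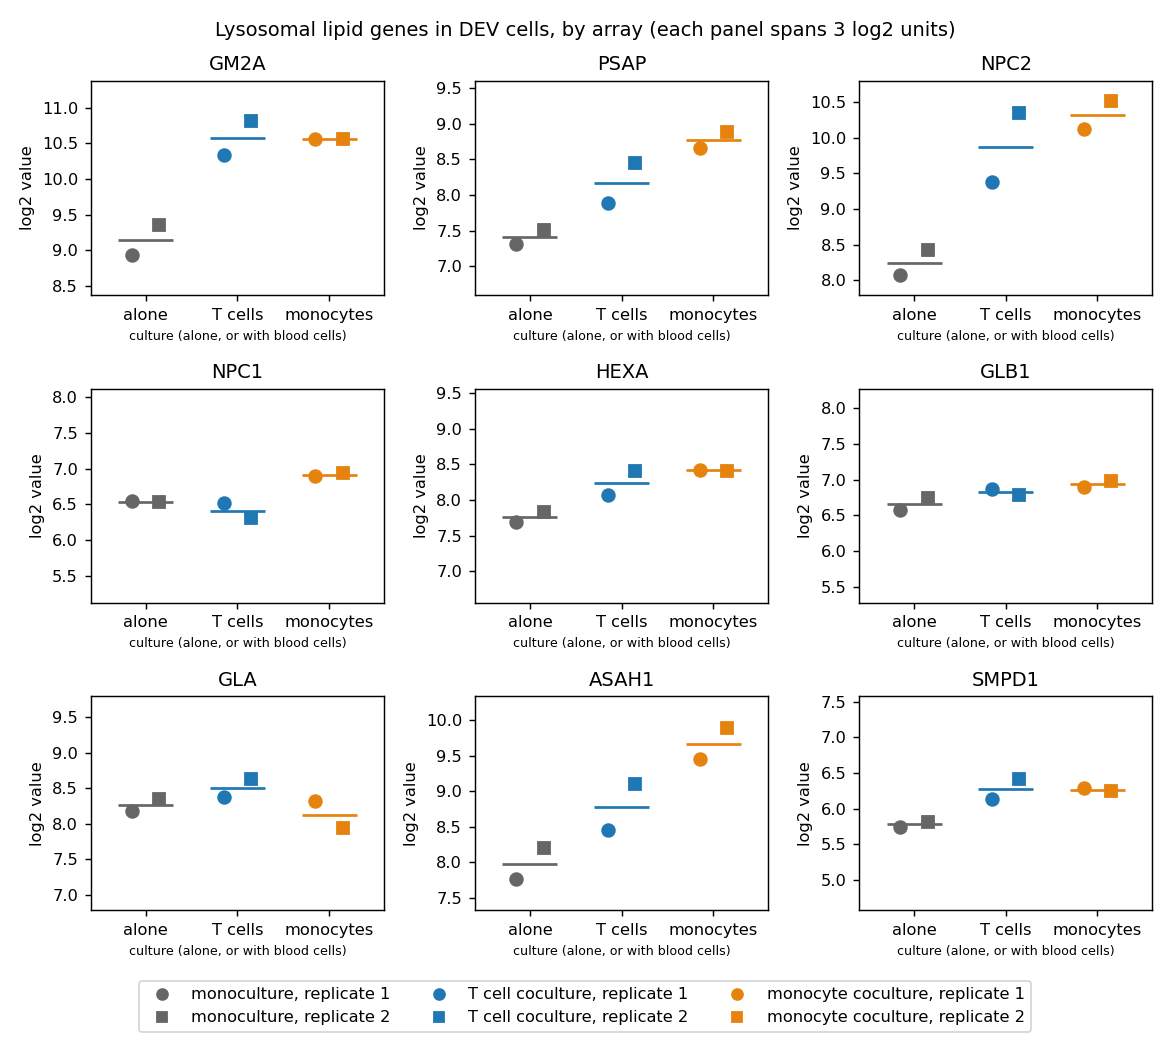
Log2 values of the 9 genes by array. Grey marks DEV cells grown alone, blue those grown with T cells and orange those grown with monocytes; a circle is replicate 1, a square is replicate 2, and each bar is a group mean (n = 2). Every panel spans the same number of log2 units, so heights of the steps can be compared between panels: NPC2 stands 1.84 higher in coculture and GM2A 1.42, while GLA stands 0.05 higher with its groups overlapping.

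Both activator proteins were among the genes with the largest differences. GM2A, the activator that presents ganglioside GM2 to hexosaminidase A, read 8.94 and 9.35 in monoculture, 10.33 and 10.81 with T cells, and 10.56 and 10.57 with monocytes. Both coculture groups lay wholly above monoculture and overlapped each other. The difference was 1.42 ± 0.17 (SE of the fit, 2.68-fold) for both cocultures, 1.43 ± 0.20 with T cells and 1.42 ± 0.20 with monocytes. Without any 1 array it lay between 1.21 and 1.63.

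PSAP encodes prosaposin, the precursor from which the saposins A to D are cut, activators for the breakdown of several sphingolipids. It read 7.32 and 7.51 in monoculture, 7.89 and 8.44 with T cells, and 8.66 and 8.89 with monocytes. The 3 groups did not overlap, with monocultured cells lowest and monocyte coculture highest. PSAP stood 0.76 ± 0.20 above monoculture with T cells and 1.36 ± 0.20 with monocytes, or 1.06 ± 0.17 (2.08-fold) for both. Without T cell coculture replicate 2 the difference with T cells was 0.48.

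Of the sterol carriers, NPC2, the soluble protein that takes up cholesterol inside the lysosome, had the largest difference of the 9 genes. Its values were 8.08 and 8.42 in monoculture, 9.39 and 10.35 with T cells, and 10.12 and 10.51 with monocytes. All coculture arrays were above monoculture, and the T cell arrays, 0.96 apart, reached into the range of the monocyte arrays. The difference was 1.62 ± 0.32 (3.07-fold) with T cells, 2.07 ± 0.32 (4.19-fold) with monocytes and 1.84 ± 0.28 (3.59-fold) for both.

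NPC1, the membrane protein that receives cholesterol from NPC2, did not share this size or pattern. It read 6.54 in both monoculture arrays, 6.51 and 6.30 with T cells, and 6.90 and 6.94 with monocytes. The T cell arrays lay below monoculture, replicate 1 only narrowly, and the monocyte arrays above it. The differences were -0.13 ± 0.10 with T cells (-0.026 without replicate 2) and 0.38 ± 0.10 with monocytes, so that the mean of both cocultures stood only 0.12 ± 0.089 above monoculture. The partner proteins of cholesterol export thus had differences of 1.84 and 0.12 in the same arrays.

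The 3 sugar-cutting enzymes differed less than the activators and NPC2. HEXA, the alpha subunit of hexosaminidase A, which cuts GM2 once GM2A has presented it, read 7.69 and 7.84 in monoculture, 8.06 and 8.41 with T cells, and 8.43 and 8.40 with monocytes. All coculture arrays were above monoculture, by 0.47 ± 0.14 with T cells and 0.65 ± 0.14 with monocytes (0.56 ± 0.12 and 1.47-fold for both), and by 0.30 with T cells when replicate 2 was left out.

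GLB1, the acid beta-galactosidase that cuts GM1, read 6.57 and 6.74 in monoculture, 6.87 and 6.78 with T cells, and 6.90 and 6.98 with monocytes. All coculture arrays lay above monoculture, the lowest by 0.040, and the difference for both cocultures was 0.23 ± 0.089 (1.17-fold), or 0.14 without monoculture replicate 1. GLA, the alpha-galactosidase that cuts globotriaosylceramide (CD77, a marker of germinal centre B cells), read 8.18 and 8.35 in monoculture, 8.38 and 8.63 with T cells, and 8.31 and 7.94 with monocytes. The T cell arrays lay just above monoculture and the monocyte arrays overlapped it. GLA stood 0.24 ± 0.16 above monoculture with T cells and 0.14 below with monocytes (-0.14 ± 0.16), and the latter was 0.0024 after quantile normalization.

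The last pair of enzymes acts on the ceramide end of the pathway. ASAH1, the acid ceramidase that splits ceramide into sphingosine and fatty acid, read 7.77 and 8.20 in monoculture, 8.46 and 9.11 with T cells, and 9.45 and 9.89 with monocytes. Its groups were separate, in the same order as those of PSAP. The difference was 0.80 ± 0.27 (1.74-fold) with T cells, 1.68 ± 0.27 (3.21-fold) with monocytes and 1.24 ± 0.23 (2.36-fold) for both. With T cells it was 0.48 without replicate 2 and 1.12 without replicate 1.

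SMPD1, the acid sphingomyelinase that makes ceramide from sphingomyelin, read 5.74 and 5.82 in monoculture, 6.14 and 6.41 with T cells, and 6.28 and 6.26 with monocytes. It was higher in both cocultures, by 0.50 ± 0.12 with T cells and 0.49 ± 0.12 with monocytes, and the cocultures overlapped. The steps before and after ceramide, SMPD1 and ASAH1, therefore had differences of 1.41-fold and 2.36-fold for both cocultures.

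Arrays of a group were not equal. In monoculture 8 of the 9 genes were higher in replicate 2 than in replicate 1, with T cells 7 of 9 and with monocytes 6 of 9. Measured from the monoculture mean, the median of the 9 genes was 0.36 in T cell coculture replicate 1 and 0.64 in replicate 2, against 0.66 and 0.64 in the monocyte arrays. The medians over all probe sets were 0.0026, 0.041, 0.020 and 0.026. T cell coculture replicate 1, the array nearest to monoculture over all probe sets, thus also had the lowest median of these genes among the coculture arrays. Single genes departed from this. The lowest coculture array was T cell replicate 2 for NPC1 and GLB1, and monocyte replicate 2 for GLA. The spread within T cell coculture was widest for NPC2 (SD 0.68, n = 2), ASAH1 (0.46) and PSAP (0.39).

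For each coculture taken separately, 0 of the 9 genes passed the adjusted threshold in limma. With T cells this was so for every probe set (0% called, with 4987 of 32321 at an unadjusted p under 0.05). With monocytes 0.579% of probe sets passed, 0.229% higher and 0.35% lower (5672 at an unadjusted p under 0.05). Both cocultures were compared with the same monoculture arrays, so that the differences with T cells and with monocytes are not independent of each other. Both T cell arrays lay above both monoculture arrays for 8 of the 9 genes, NPC1 being the exception, and both monocyte arrays did so for 8, GLA being the exception. The share of all probe sets with these patterns was not counted. The genes were chosen from this contrast, and nothing is read from these counts.

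**Figure D2:**
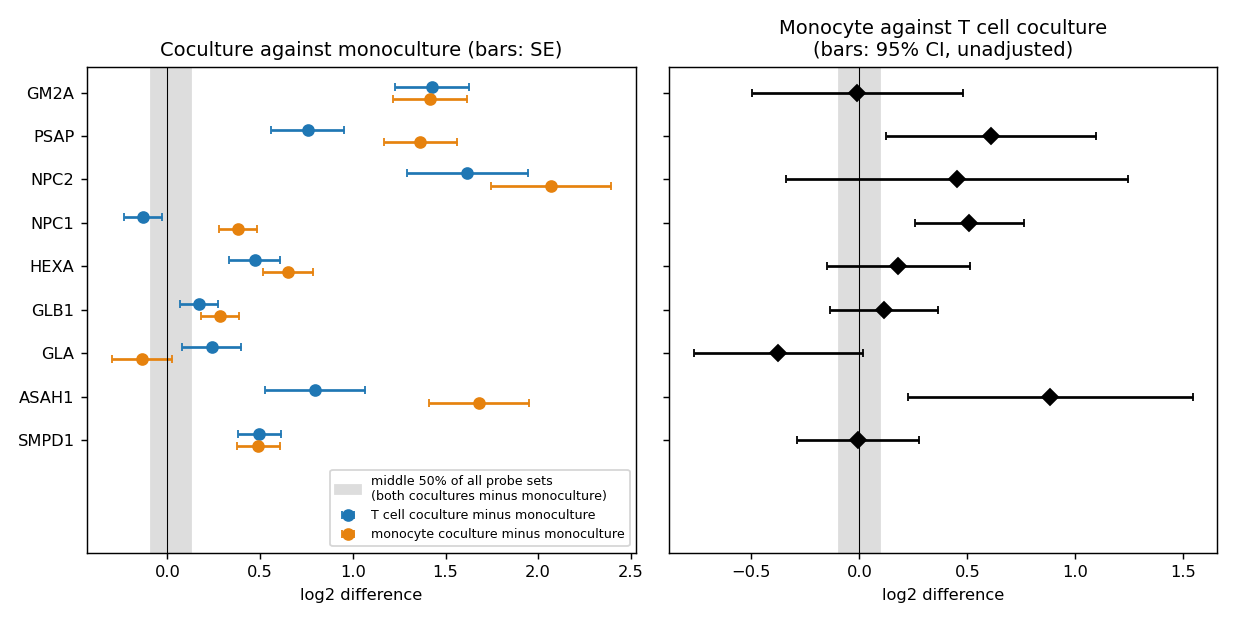
Left, log2 difference from monoculture of each gene with T cells (blue) and with monocytes (orange), with bars for the SE of the fit; right, monocyte coculture minus T cell coculture with unadjusted 95% confidence intervals; the grey band is the middle 50% of all probe sets. With T cells and with monocytes GM2A stood 1.43 and 1.42 above monoculture, while ASAH1 stood 0.80 and 1.68 above it.

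The direct comparison of monocyte with T cell coculture asked whether the genes differed by the kind of bystander cell. None of the 9 genes passed the adjusted threshold in limma, and neither did any other probe set (0% called, with 2422 of 32321 at an unadjusted p under 0.05). At an unadjusted p under 0.05 there were 3 members, NPC1, ASAH1 and PSAP, and these read higher with monocytes. NPC1 differed by 0.51 (95% confidence interval 0.26 to 0.76, limma adjusted p = 0.444), ASAH1 by 0.88 (0.23 to 1.54, limma adjusted p = 0.551) and PSAP by 0.61 (0.12 to 1.09, limma adjusted p = 0.577). Both monocyte arrays lay above both T cell arrays in 4 of the 9 genes, these 3 and GLB1, against 17.6% of all probe sets, and below them in 1 gene, GLA, against 17.1%.

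GLA was 0.38 lower with monocytes than with T cells (difference -0.38, interval -0.77 to 0.016, limma adjusted p = 0.677). For NPC2 the difference was 0.45 (interval -0.34 to 1.24, limma adjusted p = 0.840), which leaves room for a difference of over 2-fold in favour of monocytes. GM2A and SMPD1 had differences of -0.0095 and -0.0056, with intervals of -0.50 to 0.48 and -0.29 to 0.28. HEXA differed by 0.18 (-0.15 to 0.51) and GLB1 by 0.11 (-0.14 to 0.37). The median of the 9 genes was 0.18, beside 0.0019 over all probe sets, and leaving out T cell coculture replicate 1 gave 0.0076 and leaving out replicate 2 gave 0.35. With 2 arrays a group, an interval that includes 0 does not show that the cocultures were alike.

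Monocytes and macrophages are rich in lysosomes, so markers of the added cells were read in the same arrays. LYZ, the lysozyme of monocytes, read 8.42 in monocyte coculture replicate 1 and 4.98 to 5.09 in the other 5 arrays. CD14 read 6.15 in that array against 5.21 to 5.42 elsewhere, and FCER1G 6.24 against 4.91 to 5.17. Monocyte coculture replicate 1 thus stood apart in these markers, and replicate 2 did not.

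For NPC2, PSAP and ASAH1 the order of the monocyte arrays was the reverse of that of LYZ, CD14 and FCER1G. These 3 members read 10.51, 8.89 and 9.89 in replicate 2, where LYZ was at 5.06, and 10.12, 8.66 and 9.45 in replicate 1. The marker CD68 had the same order as these members (9.15 in replicate 1 and 9.45 in replicate 2). In monoculture, without added cells, 8 of the 9 genes also read higher in replicate 2. GM2A was at 10.57 and 10.56, and NPC1 and GLB1 also read higher in replicate 2. HEXA, SMPD1 and GLA had the same order as LYZ, CD14 and FCER1G. They read 8.43, 6.28 and 8.31 in replicate 1, and 8.40, 6.26 and 7.94 in replicate 2. Of the 19 monocyte and macrophage markers measured, 3 were more than 1 above the monoculture mean in monocyte coculture replicate 1 (LYZ, CD68 and FCER1G), 1 in replicate 2 and 1 in T cell coculture replicate 2 (CD68 in both), and 0 in T cell coculture replicate 1.

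The summed linear level of the 19 markers was 1197 and 1451 in monoculture, 1297 and 1360 with T cells, and 2038 and 1692 with monocytes. The brightest markers weigh most in such a sum. These were MNDA (8.27 and 8.93 in monoculture) and CD68, both bright in DEV cells grown alone. The sum of monocyte coculture replicate 2 includes CD68, the only marker there more than 1 above the monoculture mean. CD68, a lysosomal membrane protein used as a macrophage marker, was the one marker more than 1 above that mean in 3 coculture arrays. It read 7.13 and 7.62 in monoculture, 7.64 and 8.44 with T cells, and 9.15 and 9.45 with monocytes, and its difference for both cocultures was 1.29 ± 0.25 (limma adjusted p = 0.0720). By limma 0 of the 19 markers passed for both cocultures against monoculture, with 3 at an unadjusted p under 0.05. These were CD68, CSF1R, the receptor for macrophage growth factor (0.38 ± 0.14, limma adjusted p = 0.214), and MNDA, a nuclear antigen of myeloid cells that B cells also express (-0.54 ± 0.22, limma adjusted p = 0.259). CD14, FCER1G and the markers named with them in the plot by array were picked after their values were seen. The part of remaining monocytes in the members' values was not tested.

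**Figure D3:**
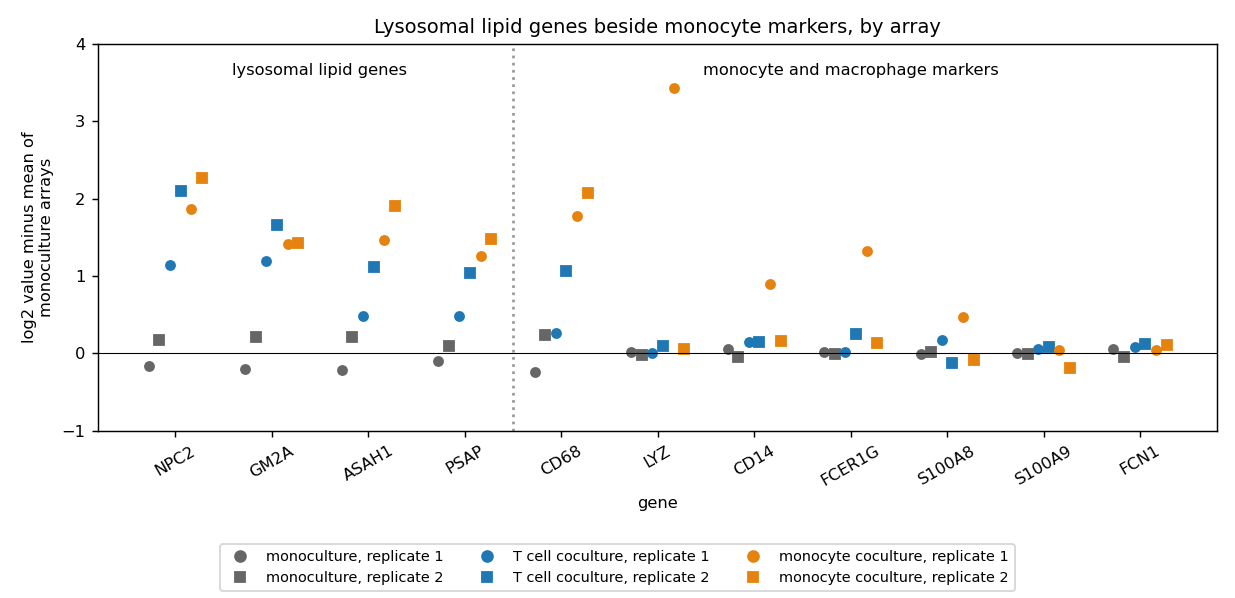
Log2 value minus the mean of the monoculture arrays for 4 of the lysosomal lipid genes and for 7 monocyte and macrophage markers, by array; grey, monoculture; blue, T cell coculture; orange, monocyte coculture; circles, replicate 1; squares, replicate 2. LYZ, CD14 and FCER1G stand highest in monocyte coculture replicate 1, while NPC2, ASAH1, PSAP and the marker CD68 are highest in replicate 2. Of the genes not drawn, HEXA, SMPD1 and GLA read higher in monocyte coculture replicate 1 than in replicate 2.

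None of the 20 T cell markers stood more than 1 above the monoculture mean in any array. Their summed linear level was 1358 and 1628 in monoculture, 1659 and 1696 with T cells, and 1266 and 1297 with monocytes, so that both T cell arrays lay above both monoculture arrays. Among the markers that weigh most in this sum was CCL5, named after its values were seen and bright in DEV cells grown alone. It read 8.02 and 8.92 in monoculture, 8.95 and 9.10 with T cells, and 7.96 and 8.20 with monocytes. The part of remaining T cells in the members' values was not tested. CD3D, a chain of the T cell receptor complex, was at 8.26 and 8.33 already in monocultured DEV cells, and fell with monocytes by 0.79 on the log2 scale (limma adjusted p = 0.0455, called in 5 of 12 other settings, up to 0.258). CD3G (5.86 and 5.89) and GZMK (4.81 and 4.89) were dim in monoculture. With T cells 17 of the 20 markers had a higher mean, beside 56.2% of all probe sets, and 0 passed by limma. At an unadjusted p under 0.05 there were 3 of the 20, against 15.4% of all probe sets. These were IL7R (0.48, limma adjusted p = 0.195), GZMK (0.40, limma adjusted p = 0.134) and NKG7 (0.27, limma adjusted p = 0.301). All 3 read higher and, apart from GZMK, were named after their values were seen. For both cocultures 0 of the 20 passed, with 3 at an unadjusted p under 0.05 (18.8% of all probe sets).

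The neighbouring groups of the lysosomal lipid pathway had smaller median differences than the 9 genes. Those 9 were chosen with this contrast known, so nothing is read from that order. Of 8 other measured genes of lysosomal sphingolipid breakdown, 7 had a higher mean in coculture, beside 57.5% of all probe sets (median difference 0.19). By limma 0 rose or fell, and 4 of 8 had an unadjusted p under 0.05, all higher, against 18.8% of all probe sets in either direction. NEU1, the lysosomal sialidase, read 6.13 and 6.71 in monoculture and 6.87 to 7.65 in the cocultures, a difference of 1.01 ± 0.25 (limma adjusted p = 0.108). SCARB2, a protein of the lysosomal membrane, differed by 0.40 ± 0.078 (limma adjusted p = 0.0707), and GALC, the galactosylceramidase, by 0.39 ± 0.13 (limma adjusted p = 0.186).

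Among 16 other genes of lysosomal lipid and cholesterol handling, 11 were higher and 5 lower (median 0.14), and 0 passed by limma (4 at an unadjusted p under 0.05). LAMP2, a major protein of the lysosomal membrane, differed by 0.70 ± 0.16 (limma adjusted p = 0.0937). VPS4B, an ATPase of endosomal sorting, read 8.18 and 8.16 in monoculture, 7.68 and 6.64 with T cells and 7.77 and 7.66 with monocytes and was lowest in 1 T cell array, with a difference of -0.73 ± 0.27 (limma adjusted p = 0.222). PLBD2, a lysosomal phospholipase B-like protein, differed by 0.46 ± 0.14 (limma adjusted p = 0.160), and SLC38A9, an arginine sensor of the lysosomal membrane, by -0.32 ± 0.086 (limma adjusted p = 0.118).

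The glycosidases and sulfatases of glycoprotein and glycosaminoglycan breakdown held 1 gene that rose. MANBA, the lysosomal beta-mannosidase, read 7.01 and 7.06 in monoculture, 7.63 and 7.85 with T cells, and 7.87 and 7.82 with monocytes, and rose by 0.76 ± 0.093 (1.69-fold, limma adjusted p = 0.0440). Its adjusted p ran from 0.0142 to 0.290 over 12 other settings. Of 13 measured genes of this group, 10 were higher and 3 lower, with a median of 0.19 (57.5% of all probe sets were higher). By limma 7 of the 13 had an unadjusted p under 0.05, 5 of them higher, against 18.8% of all probe sets in either direction. With monocytes, FUCA1, the alpha-fucosidase, also rose (0.73 ± 0.092, limma adjusted p = 0.0464), and HGSNAT, an acetyltransferase of heparan sulfate breakdown, fell (-0.75 ± 0.094, limma adjusted p = 0.0460). Both calls held in 5 of 12 other settings and were lost with quantile normalization, the replicate block, the intensity trend or without any 1 of the monoculture and monocyte arrays. SGSH, the heparan sulfamidase, differed by 0.60 ± 0.13 for both cocultures (limma adjusted p = 0.0801).

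Genes that sort lysosomal enzymes or regulate their transcription had a higher mean in 14 of 16, beside 57.5% of all probe sets, with a median of 0.16 (0.093 with arrays centred on their medians), and 1 rose by limma (5 at an unadjusted p under 0.05). FLCN, the folliculin of nutrient signalling at the lysosome, rose by 0.83 ± 0.085 (1.78-fold, limma adjusted p = 0.0369), from 5.86 and 6.02 in monoculture to 6.67 and 6.66 with T cells and 6.83 and 6.91 with monocytes. RRAGD, a GTPase that carries lysosomal nutrient signals, read 6.20 and 6.57 in monoculture, 7.54 and 8.73 with T cells, and 8.16 and 8.64 with monocytes. Its difference of 1.89 ± 0.34 was the largest of the group but missed the threshold (limma adjusted p = 0.0624), as did FNIP1, whose promoter is shown above (0.75 ± 0.11, limma adjusted p = 0.0504).

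TFEB and TFE3, transcription factors of lysosomal genes, differed by 0.15 ± 0.081 (limma adjusted p = 0.407) and 0.19 ± 0.084 (limma adjusted p = 0.312). They are given for their role and were added after their values were seen. M6PR, a mannose 6-phosphate receptor added in the same way, differed by 0.59 ± 0.12 (limma adjusted p = 0.0720).

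On the synthetic side the genes were spread to both sides of 0. For glycosphingolipid synthesis 8 of 15 genes were higher and 7 lower (median 0.043, and -0.020 with arrays centred on their medians), and 0 passed by limma, with 4 at an unadjusted p under 0.05. ST3GAL5, the GM3 synthase at the entry to gangliosides, differed by 0.43 ± 0.082 (limma adjusted p = 0.0679), while ST3GAL2, a sialyltransferase of later gangliosides, differed by -0.43 ± 0.15 (limma adjusted p = 0.210) and ST6GALNAC6 by 0.26 ± 0.099 (limma adjusted p = 0.243).

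For ceramide, sphingomyelin and sphingosine metabolism outside the lysosome, 15 of 31 were higher and 16 lower, with a median of -0.0023. By limma 0 passed, with 10 of 31 at an unadjusted p under 0.05 (18.8% of all probe sets). SGPP1 and SGPP2, phosphatases of sphingosine 1-phosphate, differed in opposite directions, by 0.65 ± 0.094 (limma adjusted p = 0.0504) and -0.91 ± 0.16 (limma adjusted p = 0.0590). CERT1, which carries ceramide to the Golgi, differed by 0.40 ± 0.081 (limma adjusted p = 0.0749).

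Cholesterol synthesis and uptake had 8 genes higher and 13 lower of 21 (median -0.080), with 0 passing the limma threshold and 8 of 21 with an unadjusted p under 0.05 (18.8% of all probe sets). LSS, the lanosterol synthase, differed by 0.89 ± 0.23 (limma adjusted p = 0.109), NSDHL, a later enzyme of the same route, by -0.72 ± 0.15 (limma adjusted p = 0.0770), and SREBF2, the main regulator of the pathway, by 0.38 ± 0.090 (limma adjusted p = 0.0951).

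Among 12 genes of cholesterol efflux and storage, 9 were higher and 3 lower, with a median of 0.076. By limma 2 of the 12 had an unadjusted p under 0.05 (18.8% of all probe sets). MYLIP, a ubiquitin ligase induced by sterols, read 7.95 and 7.93 in monoculture, 9.19 and 9.46 with T cells, and 8.94 and 8.91 with monocytes, and rose by 1.18 ± 0.10 (2.27-fold, limma adjusted p = 0.0338). LPCAT3, a phospholipid acyltransferase, differed by -0.78 ± 0.26 (limma adjusted p = 0.187) and SREBF1, a regulator of lipid synthesis, by -0.18 ± 0.091 (limma adjusted p = 0.357). The sterol exporter ABCA1, added after its values were seen, differed by -0.018 ± 0.075 (limma adjusted p = 0.937).

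With monocytes alone MANBA (0.81, limma adjusted p = 0.0472), FLCN (0.93, limma adjusted p = 0.0446) and MYLIP (0.98, limma adjusted p = 0.0455) rose too. The calls of these 3 genes rest on few arrays. Without either monoculture array or either monocyte array, 0 probe sets of the whole table passed for both cocultures and all 3 calls were lost, and MANBA was also lost with an intensity trend in the fit. With monocytes alone the calls were lost in the same 4 cases and with the trend, and that of MANBA also with quantile normalization and the replicate block. The lists were also set up with earlier results of these arrays known.

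**Figure D4:**
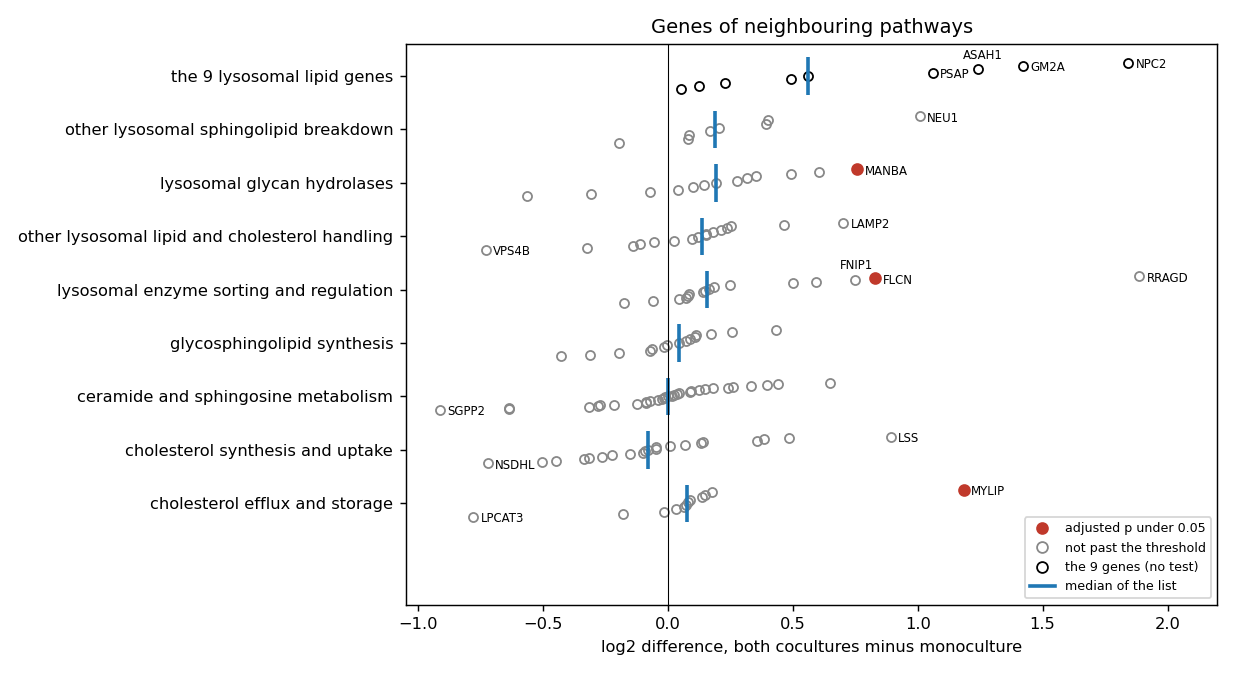
Log2 difference of both cocultures minus monoculture for every measured gene of the 9 lysosomal lipid genes and of 8 neighbouring groups, with 1 point per gene and a blue line at the median of each group; red points passed an adjusted p of 0.05 in limma, and the 9 genes are drawn in black without a test. The group medians run from 0.56 for the 9 genes to 0.19 for other sphingolipid breakdown and -0.080 for cholesterol synthesis and uptake. The 9 genes were chosen with this contrast known, so the place of their median is not a result. MANBA, FLCN and MYLIP are the red points.

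The genes whose 6-array profiles lay nearest to those of the leading members were sought among 10658 genes brighter than the median probe set. Likeness was the Euclidean distance between profiles, each taken around its own mean over the 6 arrays. Nearest to GM2A were HMCES (distance 0.21), RGS1 (0.25) and CDK2 (0.26). For NPC2 they were RRAGD (0.26), LY9 (0.42) and ABHD4 (0.48), and for PSAP NMRK2 (0.21), PTPRM (0.24) and RASGEF1B (0.25). RRAGD is thus both a gene of the sorting and regulation group and the nearest profile to NPC2, with 7.54 and 8.73 in the T cell arrays where NPC2 read 9.39 and 10.35.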

How the data were processed

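RNA of DEV cells from 3 culture conditions (2 arrays each) had been amplified, labelled with biotin and hybridised to Affymetrix human Gene ST arrays. The authors deposited log2 values, 1 for each of 32321 probe sets and 6 arrays. How these were summarised, background-corrected and normalized is not given in the sources used here. The values were used as deposited, with 0 missing. Precision is limited by having 2 arrays a group. Sample labels gave the groups and replicate numbers.

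Platform annotation gave 1 gene symbol to 19158 probe sets (18404 genes), several to 1388 and none to 11775. Of the former, 19128 were found in the RefSeq gene table for GRCh38.p14. Where several probe sets shared a symbol, the one with the highest mean stood for the gene.

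For each probe set 1 mean per group was fitted in limma 3.58.1 (R 4.3.3) with lmFit and eBayes (3 residual and 3.08 prior degrees of freedom), with Benjamini-Hochberg adjustment over all probe sets. The fit was tested on simulated data. Alternatives were quantile normalization, centring on array medians, removal of the dimmest 40% of probe sets, a replicate block, an intensity trend, the mean of all probe sets of a gene and omission of each array.

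The 9 genes, the other gene lists and the markers were chosen with earlier results of these data known. Named genes are the 9; of each other list the genes called in any comparison, the 3 of smallest p and the 2 of largest difference for both cocultures against monoculture; and the 3 nearest profiles of GM2A, NPC2 and PSAP. Genes without a probe set of 1 symbol were not analysed.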

Additional observations from a re-analysis of the deposited data

Results flagged for a closer look

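NPC1 was singled out because its values in the cocultures lay on opposite sides of the monoculture mean. Both T cell arrays (6.51 and 6.30) lay below the monoculture mean of 6.54 and both monocyte arrays (6.90 and 6.94) above it, T cell coculture replicate 1 only narrowly, a difference between the cocultures of 0.51 in favour of monocytes. By limma this difference did not pass the adjusted threshold (unadjusted p = 0.0025, adjusted p = 0.444, from 0.277 to 0.854 over 12 other settings). Its size was 0.40 when T cell coculture replicate 2 was left out and 0.61 when replicate 1 was.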

How the results depend on the processing

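The number of probe sets called depended on single arrays. For both cocultures against monoculture it was 232, and ranged from 0 (without either monoculture array or either monocyte coculture array) to 2329 (without T cell coculture replicate 1) when 1 array was left out, the lone array of a group being assumed to vary like the others. With T cells it was 0 and reached 1391 without T cell coculture replicate 1. With monocytes it was 187, and ranged from 0 to 1167 (without either T cell array), with 1 left without monocyte coculture replicate 2. Between the cocultures it ranged from 0 to 1 (without monocyte coculture replicate 2). Centring on medians gave 564 for both cocultures and 440 with monocytes, removal of the dimmest 40% gave 756 and 572, and the intensity trend gave 55 and 0.

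For both cocultures, 4 members passed without the dimmest probe sets (GM2A, PSAP, NPC2 and ASAH1), 2 after centring, 0 with the trend, 6 without T cell coculture replicate 1, 3 without replicate 2 and 0 without any 1 of the other arrays. With monocytes 0 members passed, against 1 after quantile normalization, 2 after centring, 4 without the dimmest probe sets, 4 with the replicate block and 5 without either T cell array, and with T cells 4 passed without T cell coculture replicate 1. Between the cocultures 0 passed in every setting. The cause of these changes was not tested. Whether arrays with the same replicate number belong together is not stated in the sources used here. Their deviations from the group means correlated at 0.027 (monoculture and T cell coculture), -0.15 (monoculture and monocyte coculture) and 0.26 (the 2 cocultures). These values do not settle whether the arrays are paired. The fit with the replicate block gave 292 calls for both cocultures, 222 with monocytes and the same 4 members as without the dimmest probe sets.

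Between monocyte and T cell coculture, the median member difference of 0.18 ranged from 0.0076 to 0.35 with 1 array left out. GM2A turned from -0.0095 to 0.15 after quantile normalization, and ranged from -0.25 to 0.23 with 1 array left out. NPC2 ranged from -0.032 to 0.93 (lowest without T cell coculture replicate 1), and SMPD1 from -0.14 to 0.13 (0.13 without T cell coculture replicate 2 and 0.0087 without monocyte coculture replicate 2).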
